A study of Mus musculus with 2 samples.

Results

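The microRNAs miR-128 and miR-137 are made in the mouse from 3 hairpins, Mir128-1, Mir128-2 and Mir137, and their counts were examined in embryonic hindbrain. The hairpins were chosen by name. Their Ensembl identifiers were matched to GENCODE symbols, and all 3 were found among the 1973 genes listed. Hindbrains were taken at embryonic day 16.5 from healthy B6NCrl embryos, male and female pooled. There were 2 biological replicates, each from a separate pool of embryos, sequenced as 1 library each. The replicate 2 pool was of 37 embryos. The number in the replicate 1 pool is not given in the sources used here. All samples belong to this 1 group, so no treatment, genotype or age was compared.

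MicroRNAs are short RNAs cut from hairpin precursors, and they repress messenger RNAs that pair with their seed, bases 2 to 8 from the 5′ end. The arms of a hairpin are named 5p and 3p, and usually one of them is loaded into the silencing complex more than the other. In the mouse, miR-128 is enriched in brain neurons, and its loss in forebrain neurons leads to hyperactivity and seizures. miR-137 is also enriched in brain, where it is known for its part in the differentiation of neural stem cells and the growth of dendrites. The human MIR137 locus is associated with schizophrenia.

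Sequence sets which reads can be credited to each hairpin, so the mature arms are shown first, with the seed in capitals. They are from the RefSeq annotation of GRCm38.p6, the assembly that mm10 denotes.
miR-128-1-5p: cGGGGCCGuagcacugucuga
miR-128-2-5p: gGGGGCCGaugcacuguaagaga
miR-128-3p: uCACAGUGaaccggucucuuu
miR-137-5p: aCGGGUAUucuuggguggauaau
miR-137-3p: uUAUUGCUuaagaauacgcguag
Both miR-128 hairpins carry the same miR-128-3p, the arm for which the microRNA is best known. Their 5p arms have the same seed but part soon after it, and the longest run those arms share is 7 bases. miR-137-5p and miR-137-3p were each found in 1 of the 1005 hairpins of the table, that of Mir137.

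The whole hairpins show how far the shared stretch reaches. In the miR-128 hairpins the capitals mark the longest run common to both, and in Mir137 they mark the mature arms.
Mir128-1, chr1:128202361-128202430, plus strand: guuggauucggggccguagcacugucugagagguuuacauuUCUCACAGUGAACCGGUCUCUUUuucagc
Mir128-2, chr9:112118636-112118711, minus strand: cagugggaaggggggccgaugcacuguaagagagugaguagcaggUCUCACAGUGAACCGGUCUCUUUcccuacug
Mir137, chr3:118433857-118433929, plus strand: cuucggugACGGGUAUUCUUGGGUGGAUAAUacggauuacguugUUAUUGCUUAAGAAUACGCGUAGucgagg
The shared run is 23 bases long. It holds all 21 bases of miR-128-3p with 2 bases before them, and it ends at the last base of the mature arm. A read of miR-128-3p that stays within this run therefore matches both loci, whereas reads of the 5p arms, or reads that run past the end of the shared run, differ between them. Reads that match several loci were set apart by the authors as 1 total, 34.5% of all reads in replicate 1 and 35.1% in replicate 2, and were credited to no gene. The files do not split a gene's counts by arm. The Mir128-1 and Mir128-2 counts thus leave out an unknown part of miR-128-3p, while no arm of Mir137 had a copy in the table and its hairpin shared no run longer than 10 bases with any other.

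**Figure D1:**
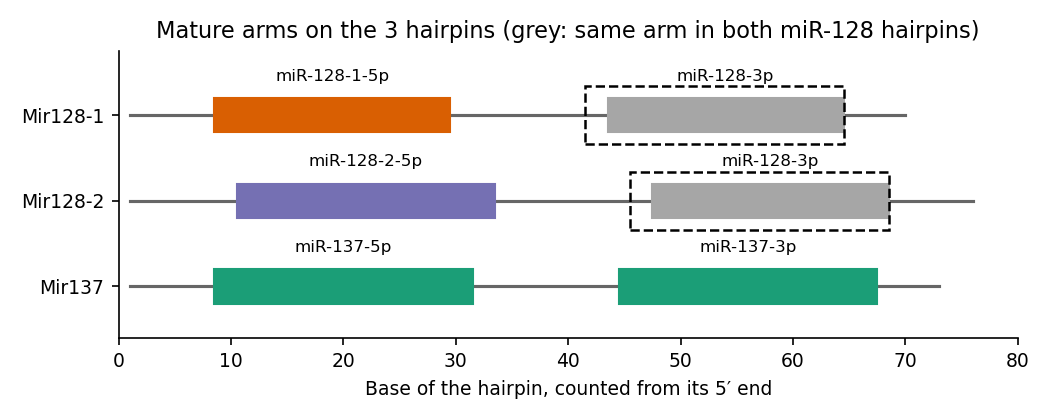
Positions of the mature arms on the 3 hairpins, in bases from the 5′ end. Coloured boxes are arms found in 1 hairpin, grey boxes are miR-128-3p, found in both miR-128 hairpins, and dashed frames are the 23 bases those hairpins share.

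The 3 hairpins lie on different chromosomes and each overlaps a longer gene on the same strand (mm10, GENCODE M21). Mir128-1 (ENSMUSG00000065520.1) is 70 bases long and lies in an intron of R3hdm1, a protein-coding gene whose product has an R3H nucleic acid binding domain. It was intronic in both of the 2 R3hdm1 transcripts that span it, 99060 bases from the start of the gene. Mir128-2 (ENSMUSG00000065441.1) is 76 bases long and lies in an intron of Arpp21, which encodes a phosphoprotein regulated by cyclic AMP. It was intronic in all 9 spanning transcripts, 117227 bases from the start. Mir137 (ENSMUSG00000065569.1) is 73 bases long and lies in an exon of the noncoding gene Gm26871, in both of the 2 transcripts that span it and 3533 bases from its start. Host transcripts were not measured. The only other listed microRNA gene within 50000 bases of a member was Gm24155, 791 bases downstream of Mir137, which had 0 counts in both libraries. A count of 0 allows up to 0.589 CPM (counts per 1000000 sense counts of the library) in replicate 1 and 0.673 CPM in replicate 2.

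The depth was 5097205 sense counts on listed genes in replicate 1 and 4460836 in replicate 2. Genes with 10 counts or more in each library are called detected, and there were 385 of them. The hindbrain markers Mir10a and Mir10b, which lie in Hox clusters, had a summed level of 100993 CPM in replicate 1 and 85868 CPM in replicate 2. The neural markers Mir9 and Mir124, of which 5 of 6 listed hairpins were counted, summed to 493 and 472 CPM. Nearly all of this came from Mir9-3 (mean 476 CPM), and Mir124a-1, the highest of the Mir124 hairpins, had a mean of 3.62 CPM. The mature arms of the Mir9 and Mir124 hairpins are found in several loci, so the sum does not measure miR-9 or miR-124. Of the markers of other cell types, endothelial Mir126a reached 27475 CPM in replicate 1 and 29178 CPM in replicate 2. The choroid plexus pair Mir204 and Mir449a summed to 7189 and 7724 CPM, and Mir143 and Mir145a of smooth muscle and pericytes to 7249 and 7289 CPM. The erythroid pair Mir451a and Mir144 summed to 182 and 174 CPM, the leukocyte Mir223, with 1 of 2 listed markers counted, had 188 and 152 CPM, and liver Mir122 41.0 and 41.9 CPM. Of the skeletal muscle markers 3 of 4 were counted, and they summed to 375 and 24.9 CPM in replicates 1 and 2. These are whole-tissue pools, so more cells of a type and more RNA per cell cannot be told apart.

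Mir137 was the most abundant of the 3 hairpins. It had 46673 counts in replicate 1 and 32115 in replicate 2, which is 9157 and 7199 CPM. The exact binomial 95% interval was 9074 to 9240 CPM in replicate 1 and 7121 to 7278 CPM in replicate 2, and these do not overlap. Such intervals allow for counting error alone, since the reads carry no molecular identifiers and may repeat a molecule. The mean was 8178 ± 1384 CPM (SD, n = 2), which placed Mir137 at rank 24 of all listed genes. It stood above 93.8% of the detected genes and at 54.5 times their median of 150 CPM. The genes nearest to it in level over the 2 libraries, by the distance of log2 CPM, were Mir30a at 8745 ± 807 CPM, Mir23b at 8322 ± 211 CPM and Mir322 at 7377 ± 858 CPM (SD, n = 2 each).

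Mir128-1 was the more abundant of the miR-128 hairpins. It had 12687 counts in replicate 1 and 12683 in replicate 2, or 2489 and 2843 CPM, with intervals of 2446 to 2533 and 2794 to 2893 CPM. The nearly equal counts came from libraries of unequal size, so its CPM was higher in replicate 2. Its mean of 2666 ± 250.4 CPM (SD, n = 2) gave rank 65, above 83.1% of the detected genes. The nearest genes in level were Mirlet7f-2 at 2794 ± 101 CPM, Mir423 at 2455 ± 65.4 CPM and Mir107 at 2370.0 ± 156 CPM (SD, n = 2 each).

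Mir128-2 had 6385 counts in replicate 1 and 6838 in replicate 2, or 1253 and 1533 CPM, with intervals of 1222 to 1284 and 1497 to 1570 CPM. Its mean was 1393 ± 198 CPM (SD, n = 2), at rank 86 and above 77.7% of the detected genes. Like Mir128-1 it was higher in replicate 2, while Mir137 was higher in replicate 1. The nearest genes were Mir370 at 1341 ± 173 CPM, Mir132, an activity-linked microRNA of neurons, at 1310.0 ± 72.7 CPM and Mir134, a neuronal microRNA of the Dlk1-Dio3 region, at 1324 ± 27.3 CPM (SD, n = 2 each). No read was counted on the opposite strand at any of the 3 hairpins in either library.

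**Figure D2:**
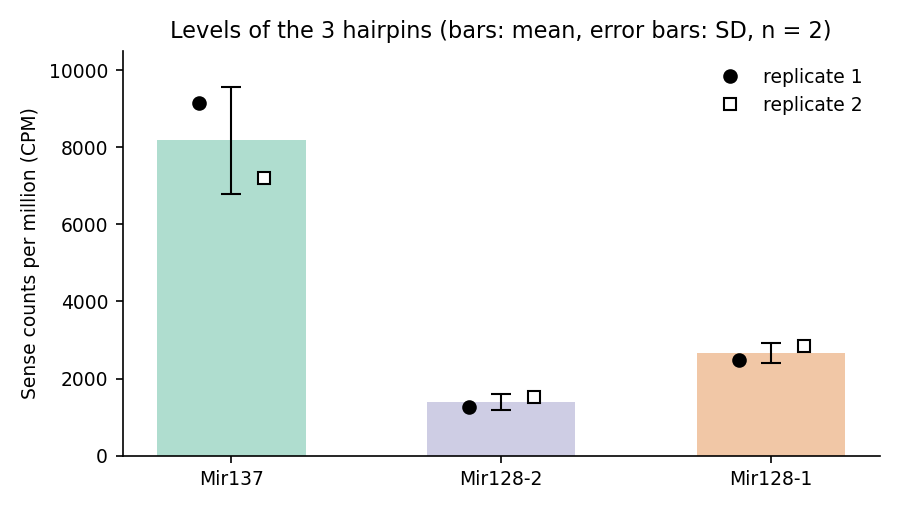
Level of each hairpin in CPM of sense counts, from 0. Bars are means, error bars SD (n = 2), filled circles replicate 1 and open squares replicate 2. Mir137 lies at 7199 to 9157 CPM in the 2 libraries, above both miR-128 hairpins.

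Together the 3 hairpins held 1.22% ± 0.0935 of all sense counts (SD, n = 2), 1.29% in replicate 1 and 1.16% in replicate 2. Mir137 supplied most of this in both libraries. Mir128-1 and Mir128-2 summed to 0.374% in replicate 1 and 0.438% in replicate 2.

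Levels of different microRNAs were compared within each library, where library scaling cancels. A short read covers a whole mature arm, so counts were not divided by hairpin length. Mir128-2 had 0.503 times the counts of Mir128-1 in replicate 1 and 0.539 times in replicate 2. It thus supplied 33.5% of the miR-128 locus counts in replicate 1 (exact binomial 95% interval 32.8% to 34.2%) and 35.03% in replicate 2 (34.4% to 35.7%). The mean log2 ratio of Mir128-2 over Mir128-1 was -0.94 ± 0.07 (SD, n = 2), and its size exceeded 2 SD. Here and below, setting a mean of 2 libraries against 2 SD is a description and not a test. An exact two-sided sign-flip test over 2 libraries gave p = 0.5, the smallest p it can give. On the reads alone the split differed slightly between the libraries (Fisher's exact test, two-sided p = 0.00134), which compares these 2 libraries and allows for counting noise only. This ratio describes what was counted at each locus, and the amount of miR-128-3p that each makes was not measured.

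Mir137 exceeded the sum of Mir128-1 and Mir128-2 in both libraries, 2.45-fold in replicate 1 and 1.65-fold in replicate 2. The mean log2 ratio was 1.00 ± 0.41 (SD, n = 2), beyond 2 SD (0.81), and the exact sign-flip test again gave p = 0.5, the smallest possible. Against Mir128-1 alone the log2 ratio of Mir137 was 1.88 in replicate 1 and 1.34 in replicate 2, and against Mir128-2 alone it was 2.87 and 2.23. The direction was thus the same in both libraries, but the size varied more than that of the ratio between the miR-128 loci. Since miR-128-3p reads that match both loci were not credited to either, these ratios do not set the amount of miR-137 against that of miR-128.

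Other hairpins with a shared arm show how the miR-128 loci stand among them. Of the genes listed, 858 had an entry with mature arms in the RefSeq table, and 326 of those were detected. Exactly 1 of 2 arms was found in another hairpin for 35 detected hairpins, which had a median of 153 CPM. No arm was shared for 283, with a median of 155 CPM, and all annotated arms were shared for 8, with a median of 201 CPM. Among the 35, Mir128-1 was at position 3 and Mir128-2 at position 4 in level, after Mir181a-1 at 4192 CPM and Mirlet7f-2 at 2794 CPM. Among the 283 with no shared arm, Mir137 was at position 22. The classes rest on the mature arms annotated in the table, which does not hold every mouse microRNA. A hairpin classed as unshared can thus still have a copy elsewhere. Mirlet7a-2 and Mir125b-1 were classed so, although Mirlet7a-1 and Mir125b-2 are also among the genes listed.

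**Figure D3:**
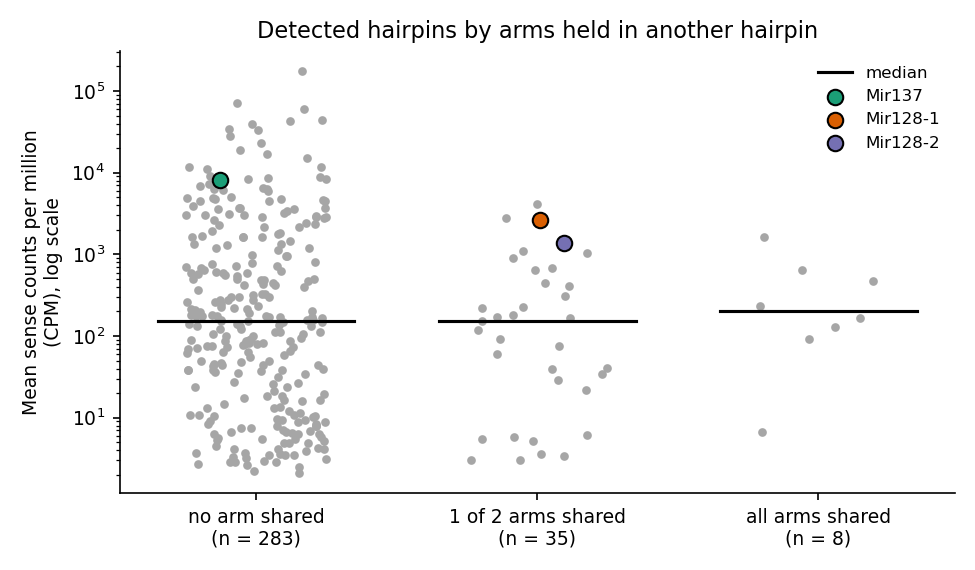
Mean level (CPM, log scale) of each of 326 detected hairpins, by whether its annotated arms are also in another hairpin of the RefSeq table. Black lines are medians, 155 CPM with no shared arm, 153 CPM with 1 of 2 and 201 CPM with all, and Mir137, Mir128-1 and Mir128-2 lie above the medians of their classes.

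Relatives by seed were few among the arms of the RefSeq table. The 7 seed letters of miR-128-3p were found, shifted by 1 base, in 3 other arms of that table. They are shown with these letters in capitals because pairing to a shifted seed can reach overlapping target sites.
miR-27a-3p: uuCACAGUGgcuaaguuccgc
miR-27b-3p: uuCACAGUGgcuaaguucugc
miR-216a-3p: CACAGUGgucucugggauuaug
Their hairpins had lower counts than either miR-128 hairpin. Mir27b, of a cluster with Mir23b and known in angiogenesis and muscle, had 725 CPM in replicate 1 and 672 CPM in replicate 2. Mir27a had 90.0 and 76.0 CPM, and Mir216a, best known from pancreas, had 84.8 and 88.1 CPM. No other arm of the table held the seed of a miR-137 arm or of the miR-128 5p arms, at bases 2 to 8 or shifted by 1 base. The table does not hold every mouse microRNA, so further relatives by seed may exist.

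A list of 36 microRNA hairpins that are enriched in neurons or studied in them gave the wider setting. Of these, 35 were counted and 32 detected, beside 385 detected of all 1973 genes listed. The median was 512 CPM over the detected and 447 CPM over the 29 of them that are not members, against 150 CPM over all 385 detected genes. The list was drawn up with earlier results of these data known, so its detection and medians are a description only. The list held 6.52% of sense counts in replicate 1 and 6.28% in replicate 2, and the 3 members supplied 19.8% and 18.4% of that. By counts at each locus, Mir137 was at position 2 of the 35, Mir128-1 at 7 and Mir128-2 at 10. Hairpins with a shared arm, both miR-128 hairpins among them, lack the reads that match several loci. Mir137 and Mir149 had no shared arm, so the order does not rank the mature microRNAs. The order at the top was Mir149 (19035 ± 935 CPM), Mir137, Mir135b (6299 ± 213 CPM), Mir342 (4943 ± 910 CPM), Mir598 (4497 ± 3.25 CPM), Mir139 (3731 ± 0.720 CPM), Mir128-1 and Mir708 (2502 ± 483 CPM; SD, n = 2 each).

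Neighbours in this order were not all separated by more than the spread of their ratios. Mir137 was below Mir149 in both libraries, with Mir149 over Mir137 at a mean log2 ratio of 1.23 ± 0.32 (SD, n = 2), beyond 2 SD. Mir137 over Mir135b gave 0.37 ± 0.20, within 2 SD. Mir128-1 was below Mir139 beyond 2 SD (Mir139 over Mir128-1, 0.49 ± 0.14). It was lower than Mir708 in replicate 1 and higher in replicate 2 (Mir128-1 over Mir708, log2 -0.19 and 0.40). Mir128-2 did not differ beyond 2 SD from its neighbours Mir153 (Mir153 over Mir128-2, 0.49 ± 0.32) and Mir132 (Mir128-2 over Mir132, 0.08 ± 0.13; SD, n = 2 each). The hairpins of Mir124, a neuronal microRNA of very high abundance in brain, stood far lower, Mir124a-1 at 3.62 CPM, and share their mature arm with one another.

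**Figure D4:**
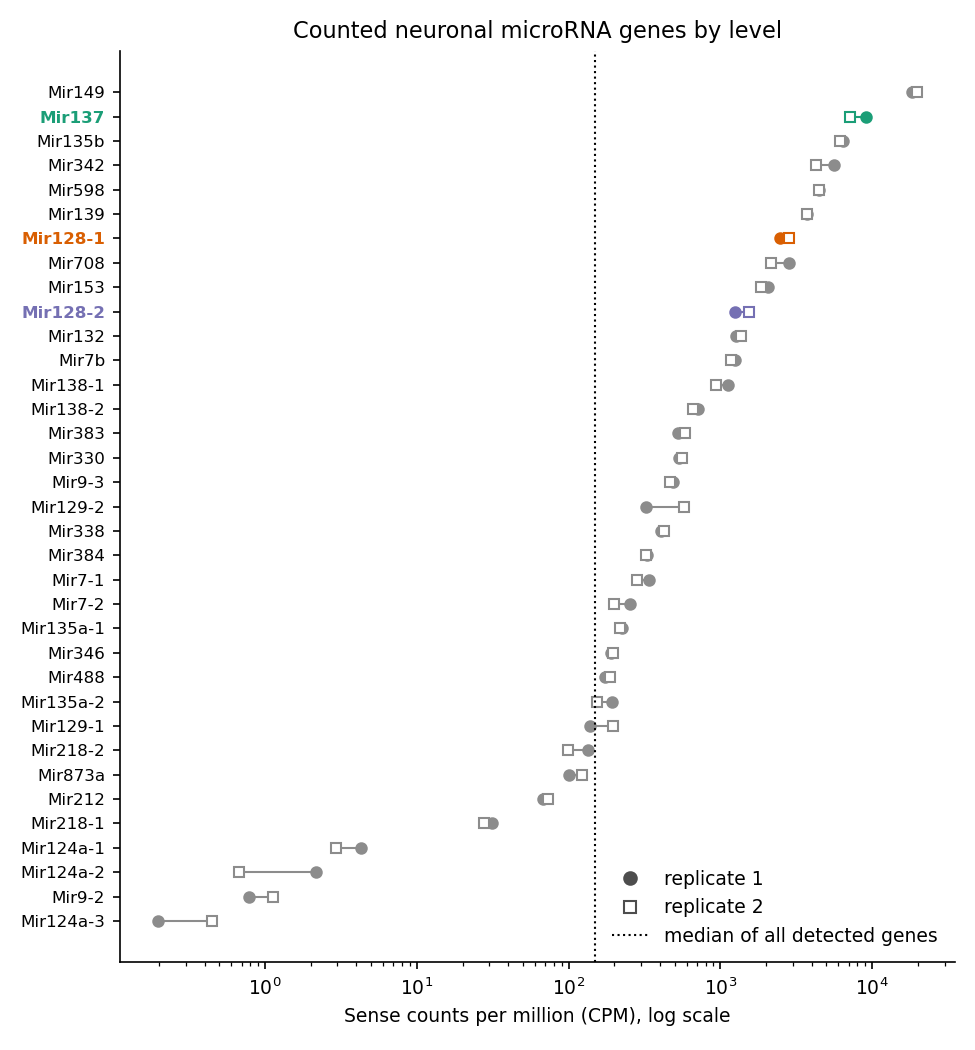
Level of each of the 35 counted hairpins of the neuronal list in both libraries (CPM, log scale). Filled circles are replicate 1, open squares replicate 2, and the dotted line is the median of all detected genes, 150 CPM. Mir137 is at position 2 from the top, Mir128-1 at 7 and Mir128-2 at 10, by counts that leave out reads matching several loci.

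The reads of each gene were then compared between the 2 libraries by a two-sided exact binomial test, against totals scaled by TMM (trimmed mean of M values). This shows how far the pools differ, not an effect of any condition. With Benjamini-Hochberg adjustment over the 401 genes whose counts summed to 20 or more, 24.4% of genes were called higher in replicate 1 and 21.9% higher in replicate 2. Among the 96 genes with a mean of at least 1000 CPM, where counting noise is small, 81 were called. Mir137 was higher in replicate 1, with a log2 ratio of replicate 1 over replicate 2 of 0.28 (95% interval 0.26 to 0.30; exact binomial test, adjusted p = 2.17e-160). Mir128-1 had a ratio of -0.26 (interval -0.29 to -0.22; adjusted p = 1.67e-44, exact binomial test) and Mir128-2 one of -0.36 (interval -0.41 to -0.31; adjusted p = 1.30e-44, exact binomial test), so both miR-128 hairpins were lower in replicate 1. At these depths a call is common, and the calls of the members say little beyond the background.

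All 3 members differed by more than the typical gene of their level. The median absolute log2 ratio was 0.15 over the 96 genes with a mean of at least 1000 CPM and 0.18 over all tested genes. Of those 96 genes, 20 had a larger absolute ratio than Mir137, 25 a larger one than Mir128-1 and 6 a larger one than Mir128-2. The exact test of edgeR, run on the pair of libraries with a biological coefficient of variation set to 0.1 to allow for spread between pools, called 1.75% of genes and none of the members (adjusted p = 0.798 for Mir137, 0.860 for Mir128-1 and 0.726 for Mir128-2). With unscaled library totals, 67.9% of the calls by the binomial test were higher in replicate 1, against 52.7% with TMM scaling, and the members kept their directions. Of the 32 tested members of the neuronal list, 9 (28.1%) were called higher in replicate 1 and 13 (40.6%) higher in replicate 2 by the exact binomial test, beside 24.4% and 21.9% over all tested genes. Without the 3 members these were 8 and 11 of 29. Calls were more common at high levels, 84.4% at a mean of at least 1000 CPM against 46.4% over all tested genes. The list's detected median was 512 CPM against 150 CPM over all detected genes, so these shares are not matched for level. The median log2 ratio of the 32 was -0.04, against 0.003 over all tested genes. The markers of other cell types went both ways. Choroid plexus Mir204 had 3106 CPM in replicate 1 and 4070.1 CPM in replicate 2 (TMM-scaled log2 ratio -0.45). Mir451a (-0.27), Mir145a (-0.22), Mir126a (-0.15), Mir122 (-0.10) and Mir143 (-0.07) also had negative ratios. Those of Mir144 (0.39), Mir223 (0.25) and Mir449a (0.10) were positive. The hindbrain markers Mir10b (0.37) and Mir10a (0.06) had positive ratios too. Mir206 of skeletal muscle had 1884 and 108 counts in replicates 1 and 2 and Mir133b 26 and 3. Mir1a-1 had 0 in both, a count that leaves out any reads matching several loci. The part of these markers in the differences of the members was not tested.

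**Figure D5:**
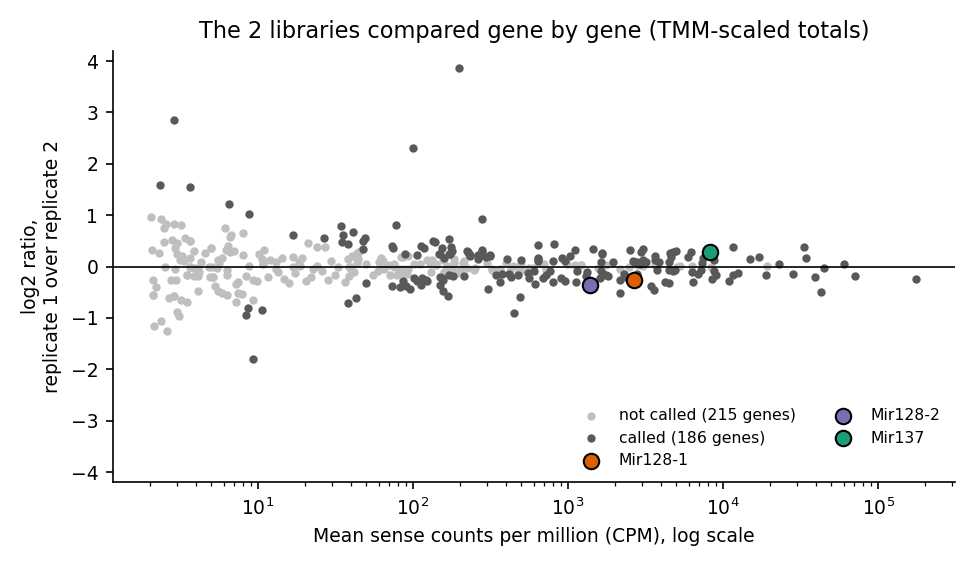
The log2 ratio of replicate 1 over replicate 2 (TMM-scaled) against mean level (CPM, log scale) for 401 genes. Dark points passed the exact binomial test at an adjusted p of 0.05, and Mir137 lies at 0.28, Mir128-1 at -0.26 and Mir128-2 at -0.36.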

How the data were processed

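MicroRNA sequencing of total RNA was deposited as 1 table of raw read counts per gene for each library, obtained by the authors on mm10 with GENCODE M4, per the text deposited with each sample. For the aligner and counter, nothing is given in the sources used here. The tables count both strands together and separately, below summary lines that name no gene. Those lines held 52.6% and 53.0% of reads in replicates 1 and 2 and stayed out of the totals. The strand with the larger total, 97.6% of assigned reads in both libraries, was taken as sense.

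Identifiers were matched without version to GENCODE M21 (1894 of 1973), where the members have a newer version than in the files. CPM used the sense total. Ratios between hairpins were taken within a library. Libraries were compared by exact binomial tests with TMM scaling, and p-values were adjusted by Benjamini-Hochberg. The test was checked on simulated counts with counting noise alone and the TMM totals given. That check covers neither spread between pools nor the scaling. Replicates are separate pools, and p-values on reads cover counting noise only. The members and lists were chosen with earlier results of these data known. Named genes were the members, the 3 nearest each in level, the 8 highest of the neuronal list, seed relatives, genes within 50000 bases and tissue markers. Genome matches of the arms were not analysed here. Alternatives were unstranded counts, other totals and scalings (DESeq2 1.42.0), count minimums, a pseudocount, counts per base, single replicates and the exact test of edgeR 4.0.16. R 4.3.3 and Python 3.11.15 with scipy 1.17.1 were used.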

Additional observations from a re-analysis of the deposited data

How the results depend on the processing

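No paired analysis was possible because all samples belong to 1 group. The levels depend on what the total includes. Without the most abundant gene, Mir99a, in the total, the mean levels were 9920 CPM for Mir137, 1694 CPM for Mir128-2 and 3242 CPM for Mir128-1, and the joint share was 1.49%. With multimapping reads in the total they were 4662, 793 and 1518 CPM, and the share was 0.697%. Per base of the annotated entry, the log2 ratio of Mir128-2 over Mir128-1 was -1.06. With the biological coefficient of variation set to 0.1, the exact test of edgeR called 7 genes between the libraries in place of 186. That setting allows for spread between pools, which the binomial test does not. The edgeR test gave the members the same log2 ratios, 0.28 for Mir137, -0.36 for Mir128-2 and -0.26 for Mir128-1, without calling them. Another 12 values, levels, shares and ratios in a single replicate, stay within 1 SD of a mean of 2 libraries by construction and say nothing of stability. Of the remaining 54 values under alternatives, 41 kept their direction and call or stayed within the limits set, 1 SD for levels and ratios and 1.5 times for counts of genes. Some of the 41 were also fixed in advance. The members had no opposite-strand counts, so unstranded counts could not change the ratios between hairpins. A changed count minimum could not change a member's log2 ratio. A looser detection rule could not pass 1.5 times, since only 35 hairpins of the neuronal list were counted. The 2 libraries limit every exact test over samples to p = 0.5 or more. How many multimapping reads belong to miR-128-3p is not known.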

Other observations

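Some pairs of loci were set side by side, a comparison chosen after the values were seen. In each, at least 1 locus shares exactly 1 arm, with the other locus and no further hairpin of the RefSeq table. The second locus was not held to this, and Mirlet7c-2, Mir129-1 and Mir219a-2 had all their arms shared. There were 14 such pairs with both loci detected. Given as the higher over the lower locus, the mean log2 ratio of Mir128-1 over Mir128-2 was 0.94, the sixth smallest of the 14, against a median of 1.68. The loci were closest for Mir135a-1 over Mir135a-2 (0.36) and farthest apart for Mir181b-2 over Mir181b-1 (6.68). Each ratio holds only reads that match 1 locus, and no test was made.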
